A study of Homo sapiens with 18 samples.

Results

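The comparison described here set THP-1 cells carrying a dominant-negative Mastermind-like construct (DNMAML) against THP-1 cells carrying the empty vector (IRES), both without IL-4, across all measured genes. It was chosen by library title and experiment number, not by any measured value, and took in 6 of the 18 RNA-seq libraries of the series, with 3 DNMAML libraries and 3 IRES libraries from experiments 1, 2 and 3. THP-1, an established leukaemia line of human monocytic origin, acquires macrophage features when given PMA, a phorbol ester. According to the labels' protocols, the DNMAML cells carried MSCV-GFP-DNMAML and the IRES cells MSCV-GFP-IRES, retroviral vectors that mark cells with GFP. Cells of both groups were sorted for GFP and then given PMA at 5 ng/ml for 48 h, so the PMA treatment and the vector backbone were shared. The remaining libraries were 3 of DNMAML and 3 of IRES cells given 20 ng/ml of IL-4 for 3 h after PMA, and 6 of cells with the NOTCH1 intracellular domain (NIC1), of which the 3 unstimulated ones are used below for side-by-side values. No label states that the libraries of 1 group are independent transductions or cultures, and p-values therefore reflect variation among these particular libraries, some of which may be technical.

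A Notch receptor bound by a ligand on a neighbouring cell is cut, and its intracellular domain moves to the nucleus, where it joins the DNA-binding protein RBPJ and a co-activator of the Mastermind-like family to switch on targets such as HES1. A dominant-negative Mastermind-like protein is a fragment that takes the co-activator's place in this complex but cannot recruit the machinery of transcription. In macrophages, Notch signalling is known for its part in inflammatory activation and differentiation.

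Counts in genes came to between 12510561 and 14473380 in the 6 libraries. IRES replicate 3 had counts in more genes than the rest, 23179, against 21067 to 21557 in the 16 libraries of the series other than it and 1 DNMAML library with IL-4. On principal component analysis of the 6 libraries, the first component held 58.3% of the variance and set experiment 2 apart. The third, with 11.8%, separated the DNMAML libraries, at -13.7 to -9.46, from the IRES libraries, at 5.38 to 16.7. Of 7 monocyte and macrophage markers, CSF1R (169 to 294 CPM over both groups), ITGAM, SPI1 and LYZ were present, where CPM, the usual per-library scaling of a gene's count, uses library sizes adjusted by edgeR's TMM method. CD14 was low, at 2.49 to 6.06 CPM in DNMAML libraries and 1.59 to 6.10 CPM in IRES libraries. CD68 was below 1 CPM in every library, and 85.8% of its annotated exon bases are shared with other genes, so its level here is uncertain. LYZ shares 34.0% of its exon bases with a gene on the opposite strand, so its level is uncertain as well. MSR1, a scavenger receptor, had 0 counts in DNMAML libraries and 4 in IRES libraries and was not tested. The summed level of the 8 B cell markers was 9.06 to 15.2 CPM in DNMAML libraries and 7.48 to 13.6 CPM in IRES libraries, with BLK, MS4A1 and VPREB1 at 0 in all 6. The 14 erythroid and megakaryocyte markers summed to 3.81 to 5.995 CPM in DNMAML libraries and 3.17 to 4.37 CPM in IRES libraries, with GATA1, HBA2, HBB, HBG1 and PF4 among those at 0. The 12 T cell markers summed to 90.4 to 99.7 CPM in DNMAML libraries and 90.2 to 108.5 CPM in IRES libraries, and the 13 fibroblast and epithelial markers to 135.9 to 209.4 CPM in DNMAML libraries and 129.2 to 171.8 CPM in IRES libraries, with no member of either list at 0. Only 6 of the T cell markers and 8 of the fibroblast and epithelial markers were high enough to be tested.

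Promoters are shown for 2 Notch targets that hold the core of the site bound by RBPJ and for MAF, which of the 22 genes that differed between DNMAML and IRES cells (termed called, by the test given after the promoters) kept its call most often when a library was left out. Each runs from 250 bases before to 50 bases after the gene's start, is read in the direction of transcription, and comes from RefSeq on GRCh38.p14. Capitals mark TGGGAA, searched on both strands. HES1 is on the plus strand at chr3:194135898-194136197, HES4 on the minus strand at chr1:1000048-1000347 and MAF on the minus strand at chr16:79600688-79600987.
HES1: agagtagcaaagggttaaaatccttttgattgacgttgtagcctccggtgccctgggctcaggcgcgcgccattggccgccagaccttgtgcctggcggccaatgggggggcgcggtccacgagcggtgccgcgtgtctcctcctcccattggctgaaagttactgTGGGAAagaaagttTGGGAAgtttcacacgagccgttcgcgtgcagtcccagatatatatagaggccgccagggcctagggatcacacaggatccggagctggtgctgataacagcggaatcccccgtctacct
HES4: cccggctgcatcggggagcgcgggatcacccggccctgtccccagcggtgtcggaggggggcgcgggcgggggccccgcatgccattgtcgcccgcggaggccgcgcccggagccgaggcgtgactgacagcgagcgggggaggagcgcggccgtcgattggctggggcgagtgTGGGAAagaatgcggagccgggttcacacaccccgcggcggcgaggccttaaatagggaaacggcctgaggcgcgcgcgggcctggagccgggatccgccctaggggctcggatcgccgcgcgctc
MAF: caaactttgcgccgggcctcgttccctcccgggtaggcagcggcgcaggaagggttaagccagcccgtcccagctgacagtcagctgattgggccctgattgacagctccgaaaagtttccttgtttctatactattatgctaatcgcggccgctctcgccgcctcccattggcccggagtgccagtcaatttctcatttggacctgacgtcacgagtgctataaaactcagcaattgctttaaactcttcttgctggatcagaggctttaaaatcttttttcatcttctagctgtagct
HES1 held 2 matches and HES4 held 1, while MAF held none in this window. TGGGAA occurred in 21.8% of the promoters of 11092 tested genes and in 24.0% of all 35116 promoters in the table. Of the called genes, 17 of 22 had a promoter there: 0 of 9 of those that fell in DNMAML cells held it, and 3 of 8 of those that rose did (KCNH2, PIK3IP1 and PALLD). A single promoter was searched for each of these genes. For CD36 and PLXNC1, which fell, it lay well inside the annotated gene, so their other starts were not searched. The longer GTGGGAA, which contains the shorter motif, was in 5.72% of the promoters of tested genes, in 0 of 9 of the genes that fell, in 1 of 8 that rose and in 3 of 7 Notch targets with a promoter (HES1, HES4 and HEYL). A match of letters is a description and not a bound site.

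To find the genes that differed between DNMAML and IRES cells, each of 15037 genes was tested with edgeR's quasi-likelihood test in a model of all 18 libraries with the experiment number as a block, which compares cells within an experiment. The model treats libraries of a construct and experiment with and without IL-4 as independent. If they share a culture, which the labels do not say, its p-values may be too low. At a Benjamini-Hochberg adjusted p under 0.05 over all genes, 22 genes differed, or 0.146% of those tested. Of these, 12 were lower (0.0798%) and 10 were higher (0.0665%) in DNMAML cells. MAF, a transcription factor of macrophages, fell and kept its call most often when a library was left out. ACP5, CD36 and NOTCH1 fell as well. MAML1, FOS and the metalloproteinase gene MMP2 rose. The 22 genes were all protein-coding, all kept 1 sign in the 3 experiments, which 33% of tested genes did, and 15 had no overlap between groups, against 6.08% of tested genes. The test that chose these genes used the same libraries and favours such genes, so the sign and overlap counts are no separate support. Their changes were between 0.28 and 2.79 on the log2 scale in either direction, and the median over all tested genes was 0.0016 with an SD of 0.23. Without the block, 0 genes were called by edgeR, with 371 at an unadjusted p under 0.05 against 1231 with it, and the lowest adjusted p among the 22 was 0.258. DESeq2 with the block called 63 genes, among them all 22. On the 6 libraries alone with the block, edgeR called 260, among them all 21 of the 22 genes that were tested there. Both fits reuse the libraries that chose the 22 genes, so the shared calls are no separate support. The 6-library fit also has fewer libraries from which to estimate variation. The number called was 2 without DNMAML replicate 1, 17 without DNMAML replicate 2, 5 without DNMAML replicate 3, 19 without IRES replicate 1, 1 without IRES replicate 2 and 3 without IRES replicate 3, so the list of 22 depends on single libraries, while all 22 genes kept their direction in each of these fits. In a fit that was added later and left out both libraries with counts in the most genes, the calls were MAF and MAML1.

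**Figure D1:**
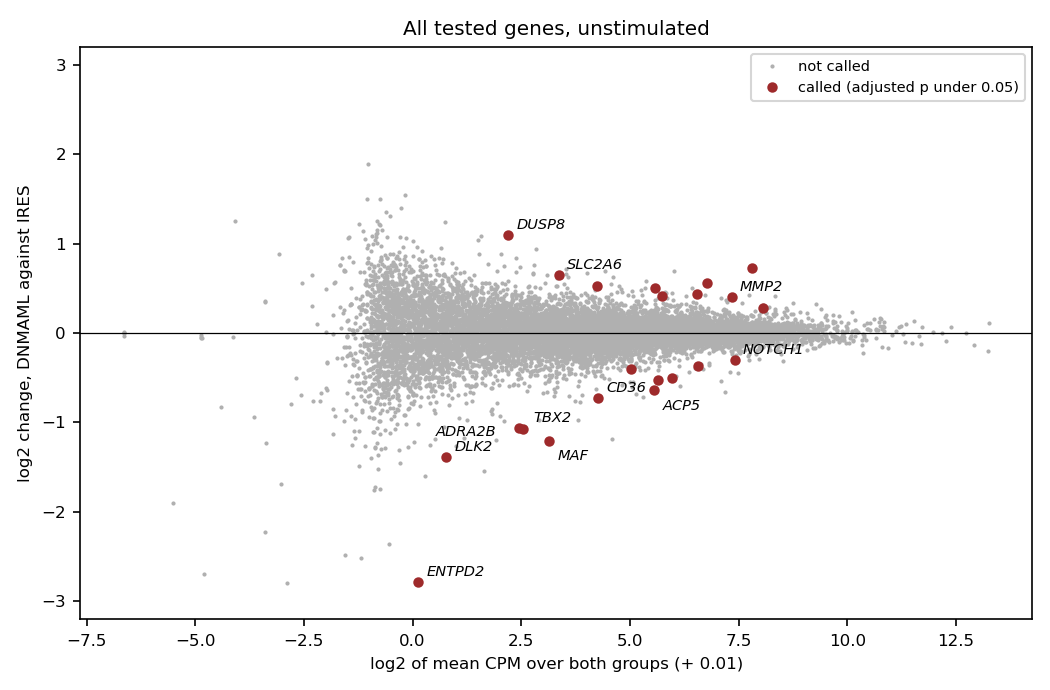
Log2 change of each of the 15037 tested genes in unstimulated cells, DNMAML against IRES (edgeR with the experiment block, y axis), against the log2 of the mean CPM over both groups plus 0.01 (x axis). Grey points are genes not called and red points the 22 called genes, which lie between -2.79 (ENTPD2) and 1.09 (DUSP8).

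Among the components of the Notch pathway, MAML1 rose and NOTCH1 and the ligand gene DLK2 fell. MAML1 (chr5:179732850-179777286, plus strand), which encodes a Mastermind-like co-activator, had 131.8, 122.7 and 138.8 CPM in the DNMAML libraries of experiments 1, 2 and 3, against 87.3, 80.6 and 99.0 CPM in the IRES libraries. Every DNMAML library lay above every IRES library. The change was 0.56 ± 0.08 on the log2 scale (SE), with an adjusted p of 0.0025 in edgeR. It was 0.56 with an adjusted p of 0.258 without the block, and 0.51 with an adjusted p of 0.0692 without IRES replicate 2. The labels do not name the gene from which the DNMAML fragment was taken, and reads of a fragment that aligns to MAML1 are counted there, so vector and endogenous transcripts cannot be told apart.

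NOTCH1 (chr9:136494433-136545786, minus strand), a Notch receptor, had 132.6, 177.7 and 144.5 CPM in DNMAML libraries, against 156.9, 234.1 and 174.2 CPM in IRES libraries. The DNMAML library was the lower one in each experiment, but the groups overlapped because experiment 2 was high in both. Its log2 change was -0.30 ± 0.06 (SE; adjusted p = 0.0315, edgeR), and the call held in 1 of 6 fits with a library left out, the one without IRES replicate 1, with an adjusted p of up to 0.173 in the rest. NOTCH2, NOTCH3 and NOTCH4 had log2 changes of -0.09, -0.22 and -0.0016 and were not called, with adjusted p of 0.816, 0.713 and 1. So 1 of 4 receptors was called lower and 0 higher, against 0.0798% and 0.0665% of all tested genes, and the list's median was -0.16, against 0.0016 over all tested genes.

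DLK2 (chr6:43450352-43456632, minus strand) encodes a non-canonical Notch ligand related to DLK1. It had 0.93, 1.03 and 0.83 CPM in DNMAML libraries, against 2.03, 2.81 and 2.57 CPM in IRES libraries. The groups did not overlap, at a total of 39 counts in DNMAML libraries and 100 in IRES libraries. The log2 change was -1.39 ± 0.25 (SE; adjusted p = 0.0294, edgeR), and the call was lost in each of the 6 fits with a library left out, with an adjusted p of up to 0.246. It was the only called member of the 7 ligand genes, against 0.0798% of all tested genes called lower. The median of the 7 was 0.01. DLK1 averaged 350.8 CPM in DNMAML cells and 310.3 CPM in IRES cells (log2 change 0.21, adjusted p = 0.192), and JAG1, a canonical ligand, averaged 56.0 CPM in DNMAML cells and 85.7 CPM in IRES cells (log2 change -0.60, adjusted p = 0.596). In the nuclear complex and its cofactors, MAML1 was the called member of 15, against 0.0665% of all tested genes called higher. That list's median was -0.0052. MAML3 had a log2 change of 0.26 (adjusted p = 0.178) and RBPJ one of 0.10 (adjusted p = 0.773). None of the 15 tested processing enzymes and glycosyltransferases and none of the 10 genes for inhibitors and turnover was called by edgeR. Each list had 1 gene at an unadjusted p under 0.05, against 8.19% of all tested genes.

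None of the 11 tested genes on a list of 16 Notch targets was called by edgeR. Among the 11, 3 had an unadjusted p under 0.05, against 8.19% of all tested genes. Of them, 5 lay above 0 and 6 below, against 49.3% of all tested genes below, and the median was -0.0048. HES1 (chr3:194136145-194138732, plus strand), a transcriptional repressor and the target whose promoter is shown above, had 5.995, 16.5 and 7.22 CPM in DNMAML libraries, against 10.2, 24.3 and 15.3 CPM in IRES libraries. The DNMAML library was the lower one in every experiment, and the groups overlapped because of experiment 2. The log2 change was -0.76 ± 0.19 (SE), with an adjusted p of 0.134. GATA3, a lymphoid transcription factor, and DTX1, a ubiquitin ligase of the pathway, were likewise below in all 3 experiments, with log2 changes of -0.80 (adjusted p = 0.31) and -0.69 (adjusted p = 0.558), at under 3 CPM in each library. HES4 averaged 2.65 ± 0.30 CPM in DNMAML cells and 3.41 ± 1.28 CPM in IRES cells (SD, n = 3 libraries each; log2 change -0.34, adjusted p = 0.741). HEY1 had a log2 change of -0.27, HEYL 0.31, PTCRA 0.20, NRARP 0.06, HES6 0.06, MYC 0.04 and CCND1 -0.0048, with adjusted p between 0.777 and 0.999. NRARP lay above 0 in all 3 experiments, by 0.02 to 0.09 in log2 CPM. The sign of CCND1, HES6, MYC, NRARP and PTCRA turned when single libraries were left out. HES2, HES5, HES7, HEY2 and IL2RA were too low to be tested, and HES5 had 0 counts in the 6 libraries.

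**Figure D2:**
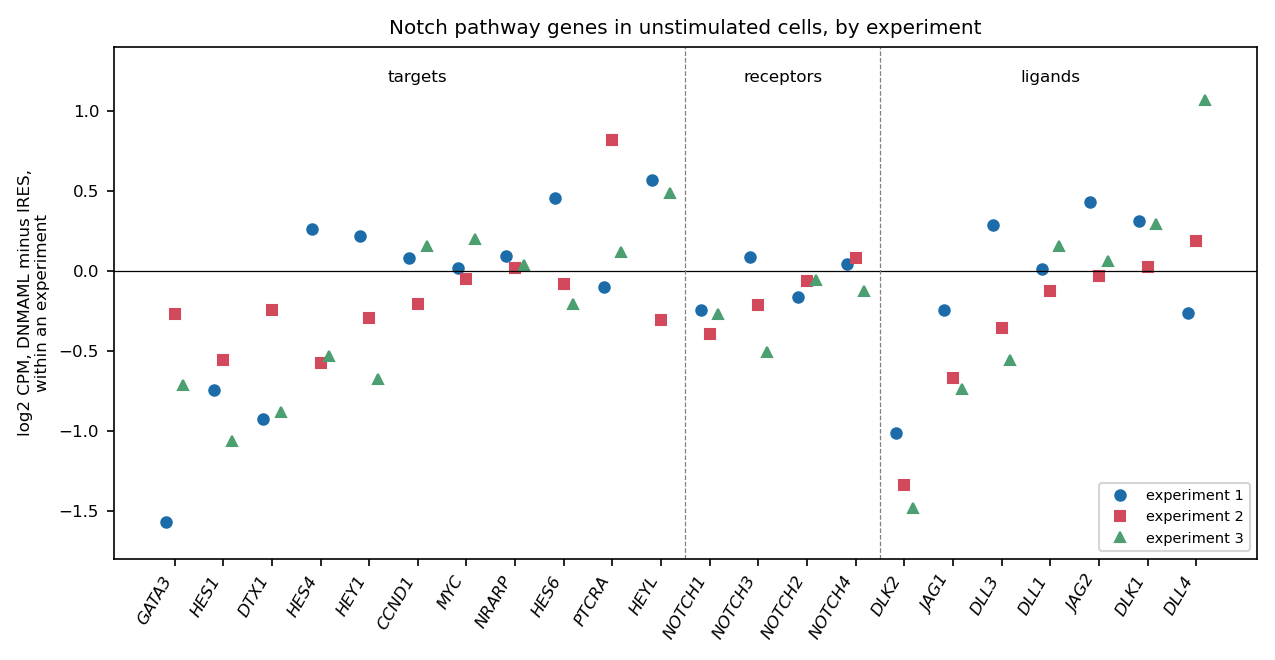
Difference in log2 CPM, DNMAML minus IRES, within each of the 3 experiments (colour and shape) for the tested Notch targets, receptors and ligands. GATA3, HES1, DTX1, NOTCH1, NOTCH2, DLK2 and JAG1 lie below 0 in all 3 experiments, of which NOTCH1 and DLK2 were called. Of the targets, NRARP lies slightly above 0 in all 3.

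Of 32 tested macrophage identity genes, 2 were called lower and 0 higher, against 0.0798% and 0.0665% of all tested genes, and the list's median was 0.05. MAF (chr16:79585843-79600714, minus strand), a bZIP transcription factor, had 4.26, 6.15 and 5.34 CPM in DNMAML libraries, against 9.51, 11.3 and 16.1 CPM in IRES libraries. All DNMAML libraries lay below all IRES libraries. Its log2 change of -1.21 ± 0.15 (SE) had the lowest adjusted p of all genes, 0.00111 in edgeR, and it was the only gene called in all 6 fits with a library left out, with an adjusted p of at most 0.0177. CD36 (chr7:80369575-80679277, plus strand), a scavenger receptor for oxidised lipoprotein and fatty acids, had 15.3, 13.6 and 14.0 CPM in DNMAML libraries, against 32.9, 18.4 and 21.2 CPM in IRES libraries. The groups did not overlap, and the gap was widest in experiment 1. The log2 change was -0.73 ± 0.13 (SE; adjusted p = 0.0398, edgeR), and the call held only without DNMAML replicate 2 among the 6 fits with a library left out, with an adjusted p of up to 0.246. ITGAM, an integrin subunit of macrophages, had a log2 change of 0.26 that missed the threshold (adjusted p = 0.11). In bulk libraries, fewer cells with a transcript and less of it per cell cannot be told apart.

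Beyond these lists, ACP5 (chr19:11574660-11579008, minus strand), the tartrate-resistant acid phosphatase of macrophages and osteoclasts, had 35.5, 39.4 and 35.8 CPM in DNMAML libraries, against 57.8, 61.7 and 52.4 CPM in IRES libraries. The groups were well apart, with little spread within either. The log2 change was -0.63 ± 0.09 (SE; adjusted p = 0.00962, edgeR), and the call was lost without DNMAML replicate 1, IRES replicate 2 or IRES replicate 3, with an adjusted p of up to 0.145. ENTPD2, an enzyme that breaks down extracellular nucleotides, had 0.07, 0.51 and 0.23 CPM in DNMAML libraries, against 0.65, 3.61 and 1.403 CPM in IRES libraries. It is named although its mean level was under the 2 CPM set for named genes, and its largest log2 change of the 22, -2.79 ± 0.44 (SE; adjusted p = 0.0119, edgeR), rests on 11 counts in DNMAML libraries and 77 in IRES libraries. That call held without DNMAML replicate 3 and without IRES replicate 1 and was lost in the other 4 fits with a library left out, with an adjusted p of up to 0.169.

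The other genes that fell were TBX2, ADRA2B, CYRIA, HEG1, PLXNC1 and SYT2. TBX2, a T-box transcriptional repressor, had 2.13, 6.44 and 2.56 CPM in DNMAML libraries, against 3.48, 11.6 and 8.34 CPM in IRES libraries (log2 change -1.07, adjusted p = 0.0398). ADRA2B, an adrenergic receptor, had 1.80, 6.08 and 2.63 CPM in DNMAML libraries, against 3.92, 13.4 and 4.83 CPM in IRES libraries (log2 change -1.06, adjusted p = 0.0294). Both were lower in DNMAML cells within each experiment, while their groups overlapped because experiment 2 was high. CYRIA, which restrains Rac signalling to actin, had a log2 change of -0.53, HEG1, a transmembrane protein of cell junctions, one of -0.51, PLXNC1, a semaphorin receptor, one of -0.41 and SYT2, a calcium sensor of vesicle fusion, one of -0.37, with adjusted p between 0.0398 and 0.0433. Of these 4, HEG1 had overlapping groups. In SYT2, 27.2% of exon bases are shared with a gene on the opposite strand, so its counts are uncertain.

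Of the genes that rose, DUSP8, a phosphatase of MAP kinases, had 7.79, 3.51 and 7.52 CPM in DNMAML libraries, against 2.61, 2.67 and 3.43 CPM in IRES libraries. The DNMAML library of experiment 2 was close to the IRES libraries and those of experiments 1 and 3 well above. The log2 change of 1.09 ± 0.21 (SE; adjusted p = 0.043, edgeR) was the highest of the 22 and was called only without DNMAML replicate 2 among the 6 fits with a library left out.

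FOS (chr14:75278774-75282230, plus strand), a component of the transcription factor AP-1, had 111.6, 90.6 and 120.8 CPM in DNMAML libraries, against 82.8, 66.2 and 90.5 CPM in IRES libraries. The groups all but touched, at 90.56 CPM in the lowest DNMAML library and 90.50 CPM in the highest IRES library, and the differences within the 3 experiments were nearly equal, at 0.43, 0.45 and 0.42 on the log2 scale. The fitted change was 0.43 ± 0.08 (SE; adjusted p = 0.0294, edgeR), held only without IRES replicate 1 among the 6 fits with a library left out, with an adjusted p of up to 0.169. Of 23 immediate early genes, FOS was the only one called, against 0.0665% of all tested genes called higher. Their median was -0.0013. MMP2 (chr16:55389700-55506691, plus strand), a gelatinase, had 172.0, 190.1 and 190.0 CPM in DNMAML libraries, against 126.7, 130.1 and 162.8 CPM in IRES libraries. The groups did not overlap, and the IRES library of experiment 3 came nearest to the DNMAML ones. The log2 change was 0.41 ± 0.07 (SE; adjusted p = 0.03, edgeR). Its call held only without DNMAML replicate 3 among the 6 fits with a library left out, with an adjusted p of up to 0.173. MMP2 was the called member of 34 matrix and metalloproteinase genes, against 0.0665% of all tested genes called higher. The median of the 34 was 0.08.

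Further called genes that rose were SLC2A6, a sugar transporter (log2 change 0.64, adjusted p = 0.0493), PALLD, an actin-binding protein (0.53, adjusted p = 0.0398), PIK3IP1, a negative regulator of PI3-kinase (0.51, adjusted p = 0.0294), KCNH2, a potassium channel (0.42, adjusted p = 0.0398), and FAM107B (0.28, adjusted p = 0.0398). Groups overlapped in SLC2A6, PIK3IP1 and FAM107B and did not overlap in PALLD and KCNH2. Over the 22 called genes, MAF was called in all 6 fits with a library left out, MAML1 in 5, ACP5 in 3, 14 genes in 1 or 2, and 5 in none, among them DLK2, PALLD, PLXNC1 and SYT2.

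**Figure D3:**
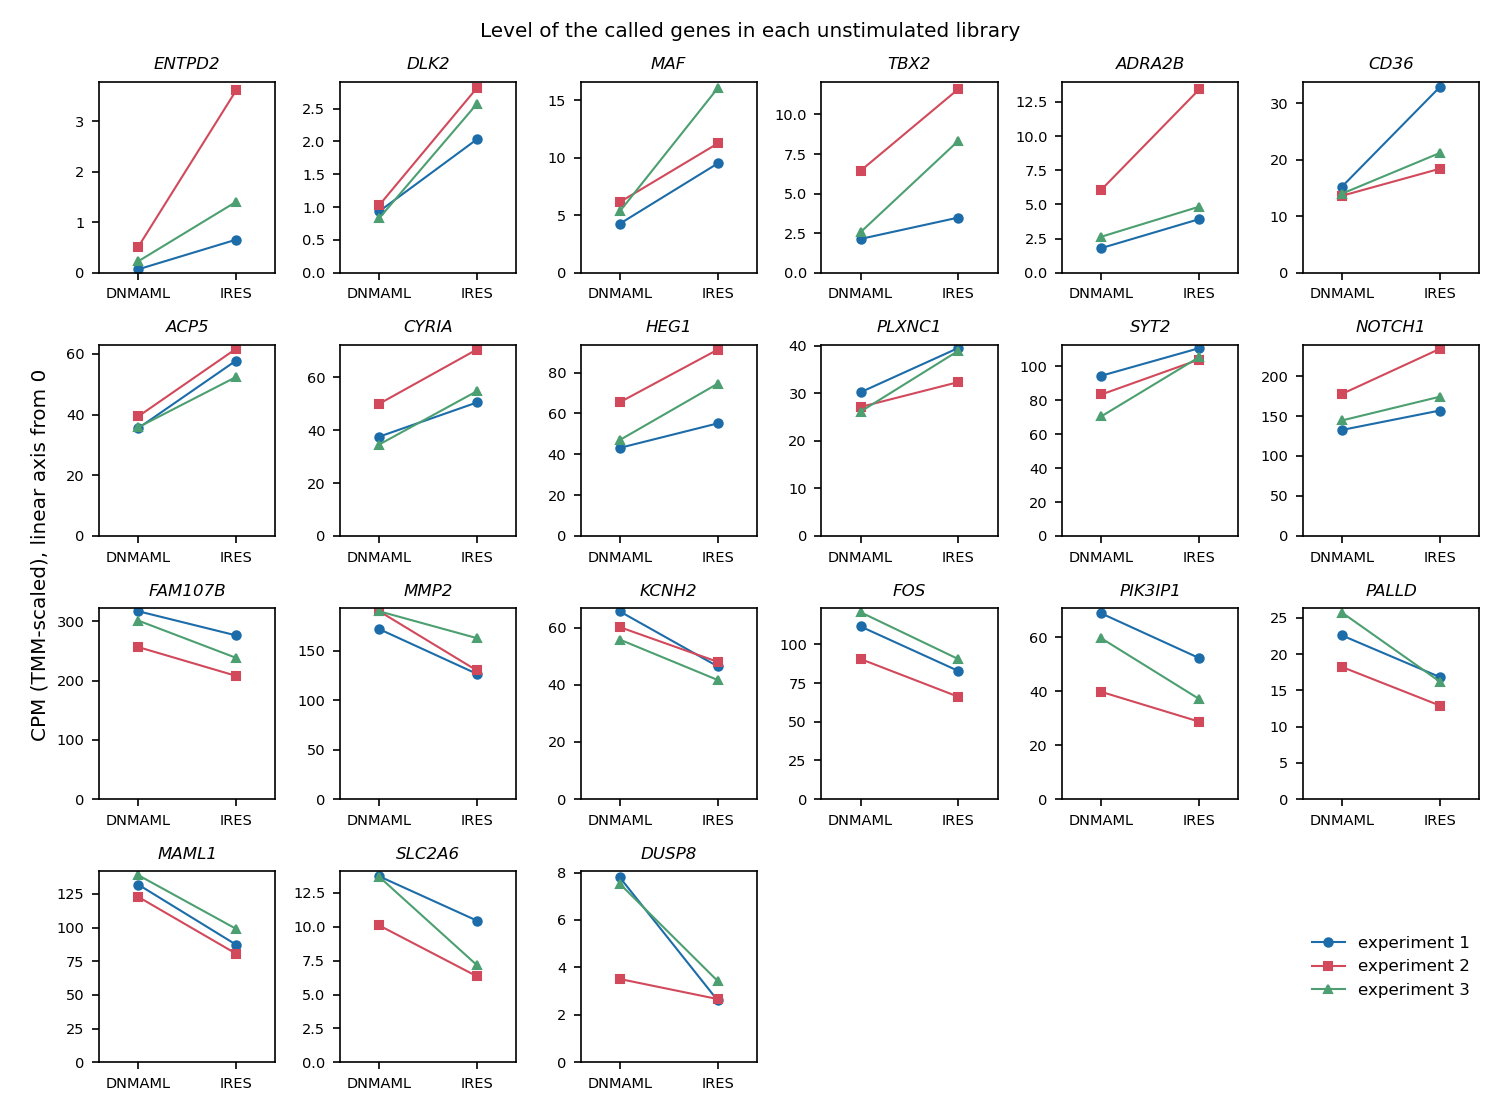
Level of 21 of the 22 called genes in CPM (linear axes from 0) in the DNMAML library and the IRES library of each experiment, joined by a line (colour and shape). The 12 genes that fell come first and those that rose after them, and every line of a gene runs the same way.

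The same vectors were compared in cells given IL-4, which uses other libraries of the same experiment numbers. There, edgeR with the block called 14 genes, or 0.0931% of 15037, with 6 higher (0.0399%) and 8 lower (0.0532%) in DNMAML cells. DNMAML replicate 3 with IL-4 stood apart, with counts in 25322 genes and 30.9% of its reads in entries naming no gene. In a later fit without it and unstimulated IRES replicate 3, 6 genes were called with IL-4. In the main fit, all 22 genes called without IL-4 had the same sign with IL-4. The share of all tested genes that kept their sign was not counted. Both comparisons come from the same fit, so the shared sign is no separate support. Of them, 7 were called there as well: MAML1, FOS and MMP2 higher, and MAF, ACP5, CD36 and NOTCH1 lower. MAF averaged 4.396 ± 1.20 CPM in DNMAML cells with IL-4 and 9.90 ± 2.68 CPM in IRES cells with IL-4 (SD, n = 3 libraries each), with a log2 change of -1.17 (adjusted p = 0.00186, edgeR). ACP5 averaged 31.6 ± 4.84 CPM in DNMAML cells and 55.9 ± 5.03 CPM in IRES cells (SD, n = 3 libraries each), with a log2 change of -0.83 (adjusted p = 0.000637, edgeR). CD36 had a log2 change of -0.94 (adjusted p = 0.0089), NOTCH1 -0.31 (adjusted p = 0.0253), MAML1 0.44 (adjusted p = 0.0246), MMP2 0.42 (adjusted p = 0.0246) and FOS 0.44 (adjusted p = 0.0467). HES1 had a log2 change of -1.05 with IL-4 that missed the threshold (adjusted p = 0.0516).

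Whether the difference between DNMAML and IRES cells itself differed with IL-4 was tested as an interaction in the same model. EdgeR called 0 of 15037 genes, with 237 at an unadjusted p under 0.05, and DESeq2 called 0. Among the 22 genes, DLK2 and ENTPD2 had an unadjusted p under 0.05 for the interaction, at 0.00693 and 0.0377, both with an adjusted p of 1. DLK2 averaged 1.37 CPM in DNMAML cells and 1.74 CPM in IRES cells with IL-4, a log2 change of -0.35 (adjusted p = 0.814). If the libraries of 1 construct and experiment with and without IL-4 came from the same culture, which the labels do not say, the 2 conditions are not independent, which the model does not take into account. Without the block, edgeR called 0 genes with IL-4.

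The unstimulated NIC1 libraries, which carry the active form of NOTCH1, were set against the same 3 IRES libraries, so this comparison and that of DNMAML share their controls and their values are given side by side only. Against IRES, NIC1 cells had 808 called genes, or 5.37% of 15037, with 517 higher (3.44%) and 291 lower (1.94%), and 35 were called without the block. Of the 22 genes, 9 were lower in DNMAML cells and called higher in NIC1 cells, and 4 were higher in DNMAML cells and called lower in NIC1 cells. MAF averaged 26.1 ± 1.20 CPM in NIC1 cells and 12.3 ± 3.39 CPM in IRES cells (SD, n = 3 libraries each; log2 change 1.11, adjusted p = 1.86e-05, edgeR). CD36 had a log2 change of 0.83 in NIC1 cells and -0.73 in DNMAML cells, and ENTPD2 one of 1.5006 in NIC1 cells and -2.79 in DNMAML cells. MMP2 had a log2 change of -0.87 in NIC1 cells and 0.41 in DNMAML cells. ACP5, with a log2 change of 0.15 (adjusted p = 0.423), MAML1, with -0.12 (adjusted p = 0.468), and DUSP8, with 0.05 (adjusted p = 0.954), were not called in NIC1 cells. NOTCH1 rose by 0.61 in NIC1 cells, where counts may include reads from the vector. HES4 averaged 15.1 ± 3.24 CPM in NIC1 cells and 3.41 ± 1.28 CPM in IRES cells, while HES1 averaged 27.4 ± 4.70 CPM in NIC1 cells and 16.6 ± 7.17 CPM in IRES cells (SD, n = 3 libraries each).

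**Figure D4:**
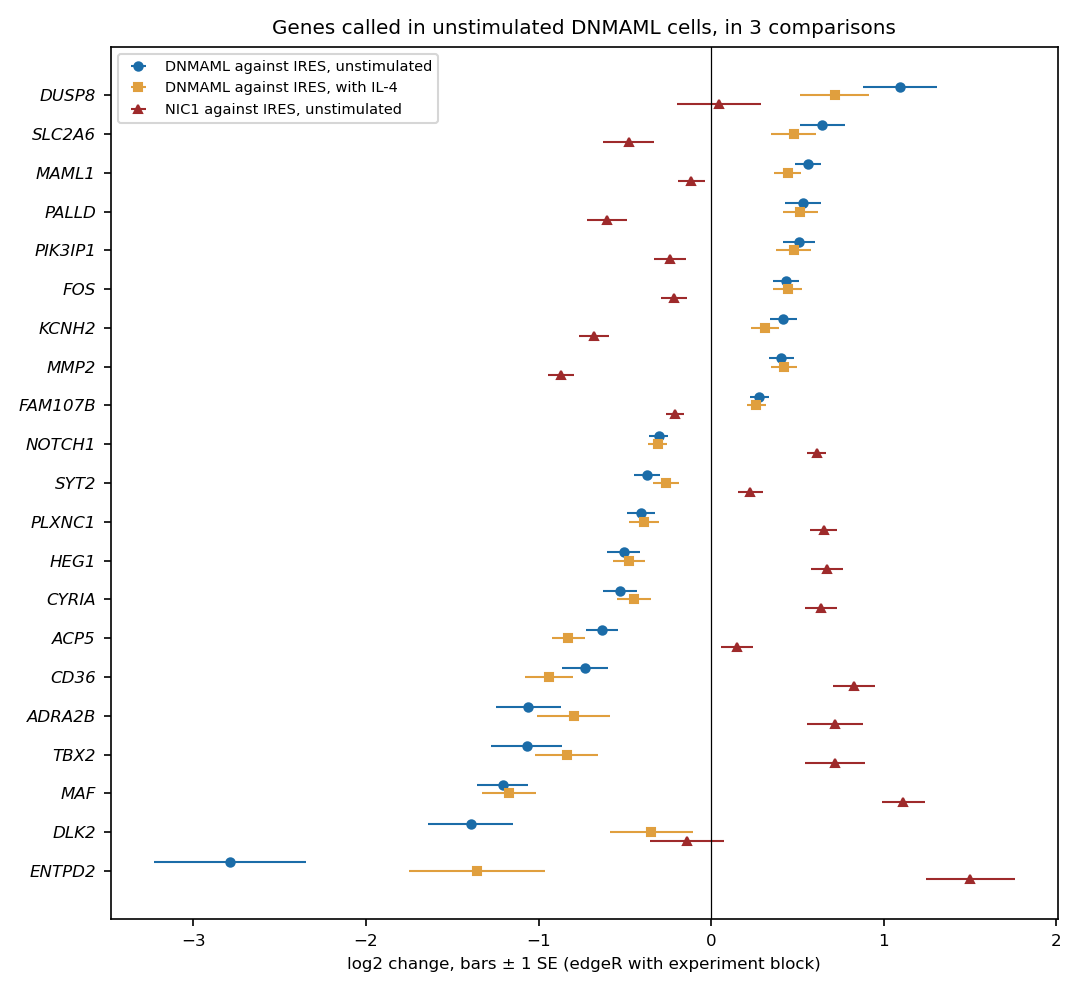
Log2 change (x axis, bars of 1 SE) of 21 of the 22 called genes for DNMAML against IRES without IL-4, DNMAML against IRES with IL-4, and NIC1 against IRES without IL-4. The 2 DNMAML comparisons, which come from the same fit, share a sign for every gene drawn. NIC1 has the opposite sign for all but DLK2 and DUSP8, with the IRES libraries shared by the first and the third comparison.

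Gene lists of 29 kinds were also counted. A called member occurred in 6 lists, described above, 23 had none, and 15 of the 22 called genes were in no list. Of 37 interferon-stimulated genes, 37 lay above 0, against 7613 of all 15037 tested genes, and none was called by edgeR. Among the 37, 1 had an unadjusted p under 0.05, against 8.19% of all tested genes. Their median log2 change was 0.26, but by experiment the median was -0.03, 0.32 and 0.49, and the summed level ranged from 1201 to 5462 CPM in DNMAML libraries and from 946.6 to 4286 CPM in IRES libraries. The spread between experiments was thus wider than the difference between vectors, and experiment 1 did not show it. The lowest adjusted p was 0.605, for GBP2, a guanylate-binding protein, which averaged 24.5 CPM in DNMAML cells and 20.5 CPM in IRES cells.

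Of 36 cell cycle genes, 35 lay below 0, against 49.3% of all tested genes, and none was called. Among the 36, 15 had an unadjusted p under 0.05, against 8.19% of all tested genes. The median was -0.25, and by experiment it was -0.34, 0.05 and -0.44, so experiment 2 did not show it. MCM6, a subunit of the replicative helicase, had the lowest adjusted p, 0.152, at 46.7 CPM in DNMAML cells and 56.4 CPM in IRES cells. Of 30 inflammatory cytokine and NF-kappaB genes, 25 lay above 0, against 7613 of all 15037 tested genes, and none was called. Among the 30, 11 had an unadjusted p under 0.05, against 8.19% of all tested genes. Their median was 0.19, and by experiment 0.22, 0.02 and 0.34. RELB, an NF-kappaB subunit, averaged 194.9 CPM in DNMAML cells and 165.9 CPM in IRES cells (log2 change 0.22, adjusted p = 0.105). Cytosolic ribosomal protein genes lay below 0 in 29 of 30, against 49.3% of all tested genes. Their median was -0.05, and none had an unadjusted p under 0.05. In the other lists of 10 or more tested genes without a called member, the median lay between -0.05 (myeloid progenitor and granule genes) and 0.12 (histone genes). The median over all tested genes was 0.0024, 0.0023 and 0.0022 in experiments 1, 2 and 3.

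**Figure D5:**
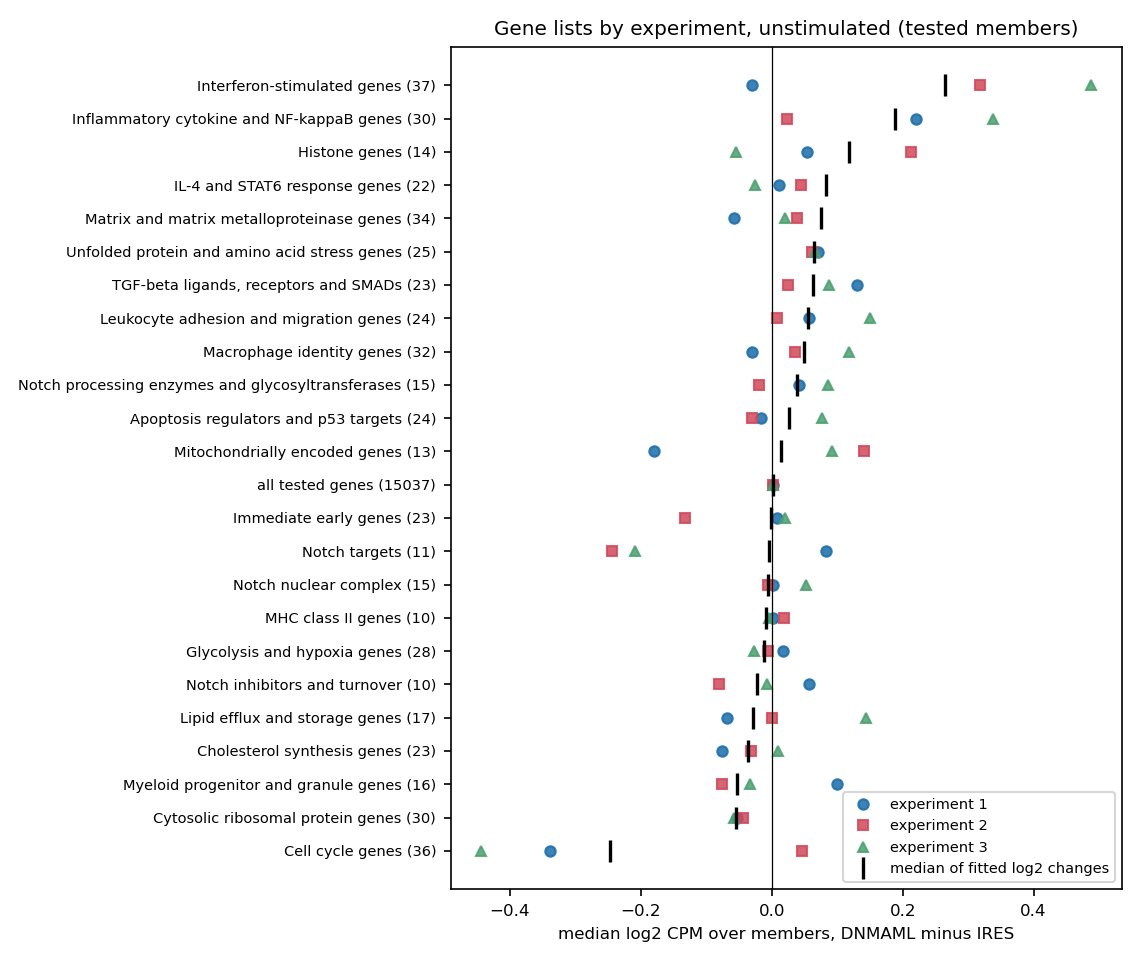
Median over the tested members of each gene list with 10 or more of them (number in brackets) of the difference in log2 CPM, DNMAML minus IRES, in each experiment (coloured points), with the median of the fitted log2 changes (black bars). The interferon-stimulated list runs from -0.03 in experiment 1 to 0.49 in experiment 3, and the cell cycle list lies above 0 in experiment 2 and below it in the others.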

How the data were processed

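The series holds 18 RNA-seq libraries of THP-1 cells, of which 6 enter the comparison described. The files the authors deposited, 1 for each library, give raw counts per gene as whole numbers with no normalization. Per the submitters' processing notes, FastQC, Trimmomatic, HISAT2, HTSeq and DESeq2 were used with the build GRCh38.p12, while tool versions, the annotation release and whether counting used strand were not given in the labels or files used here. Reads that fell in overlapping genes were entered as ambiguous, at 2.47% to 2.56% of the reads in the 6 libraries. Overlapping or antisense genes may therefore have lost reads. Files listed 58051 genes, of which 56948 had a symbol and 57447 were found in GENCODE release 29, which gave the coordinates (GRCh38, 1-based). Entries naming no gene held 24.4% to 26.1% of the reads of the 6 libraries and entered neither library sizes nor tests.

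Levels are CPM on TMM-scaled library sizes. After filterByExpr over the 6 groups, 15037 genes were fitted with edgeR's glmQLFit (robust) and glmQLFTest, with 6 group means and the experiment number as a block over 18 libraries (10 residual degrees of freedom), and p-values were Benjamini-Hochberg adjusted over all tested genes in each contrast. The residual degrees of freedom are overstated if libraries of a construct and experiment with and without IL-4 share a culture. SEs come from the F statistic. The block was used because the numbers paired the libraries: deviations from group means correlated between DNMAML and IRES libraries of one number at r = 0.569, 0.745 and 0.406 across genes, and between all 45 same-number pairs at 0.206 to 0.759. Libraries within a group differed beyond counting noise (chi-square per degree of freedom 6.56 to 37.7), so none was treated as a library deposited more than once. This does not show that they came from separate cultures. Differences within an experiment used log2 CPM with a prior count of 2. Promoter sequences were matched by symbol to a RefSeq table (17 of 22 called genes, 24 of 33 named genes).

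Named genes were MAML1, NOTCH1, the tested Notch targets, called genes with a mean of at least 2 CPM in a group and 1 sign in all 3 experiments (the 12 highest and 12 lowest log2 changes, and the most abundant), and called list members, up to 4 a list. ENTPD2 and other genes given as values without a call fall outside this rule and were chosen after their values were seen. The genes, the comparison and the 29 lists were chosen with earlier results of these data known. A called gene and a marker are counted but not reported here by name. Alternatives were no block, the 6 or 12 libraries alone, DESeq2, RLE scaling, other filters and leaving out libraries. The scripts were tested on simulated counts. Fits ran in edgeR 4.0.16 and DESeq2 1.42.0 under R 4.3.3 with limma 3.58.1. Python 3.11.15, pandas 2.3.3 and matplotlib 3.10.9 served for the rest.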

Additional observations from a re-analysis of the deposited data

How the results depend on the processing

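The number of genes called without IL-4 was 22 (10 higher and 12 lower in DNMAML cells) and with IL-4 was 14 (6 higher and 8 lower). Without the replicate block it was 0 in both, in either direction, and on the 6 unstimulated libraries without the block, a fit added after seeing the data, it was also 0. On the 6 libraries with the block 260 genes were called (133 higher, 127 lower), and on the 12 IRES and DNMAML libraries 161 (89 higher, 72 lower), with 132 under IL-4 (64 higher, 68 lower). DESeq2 called 63 (31 higher, 32 lower), and 59 with IL-4 (17 higher, 42 lower). With no filter 293 were called (147 higher, 146 lower), 278 with IL-4 (116 higher, 162 lower) and 1 for the difference between conditions, while a stricter filter called 14, of which 7 were lower. Without IRES replicate 3 and DNMAML replicate 3 with IL-4, which had counts in the most genes, an alternative chosen after seeing the data, 2 were called (1 higher, 1 lower), and 6 with IL-4 (3 higher, 3 lower). Leaving out a library or an experiment gave 1 to 37 calls without IL-4 (0 to 16 higher, 0 to 24 lower) and 2 to 48 with IL-4 (2 to 11 higher, 0 to 37 lower). RLE scaling called 22, of which 21 were shared. MAML1 changed by 0.56 without the block (adjusted p = 0.258), by 0.56 on the 6 libraries without it (adjusted p = 1), and by 0.51 to 0.62 with a library left out. Uncalled Notch targets near 0 reversed: CCND1 was 0.004 in DESeq2, 0.0079 without those libraries and -0.129 to 0.149 over leave-outs, MYC was -0.015 without them and -0.0392 to 0.206 over leave-outs, and the leave-out ranges were -0.142 to 0.188 for HES6, -0.0537 to 0.183 for NRARP and -0.0781 to 0.45 for PTCRA. The cause of these changes was not tested. At 12510561 counts or more per library, genes under about 2 CPM rested on few counts, as for ENTPD2 with 11 in DNMAML libraries and 77 in IRES libraries.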

Other observations

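With IL-4, 7 genes were called by edgeR with the experiment block that were not called without it. MMP7, a matrix metalloproteinase, averaged 25.7 ± 8.65 CPM in DNMAML cells and 49.6 ± 16.4 CPM in IRES cells with IL-4 (SD, n = 3 libraries each; log2 change -0.95, adjusted p = 0.0054, edgeR), and had a log2 change of -0.60 without IL-4 (adjusted p = 0.0698). KRT3, a keratin, had a log2 change of -1.64 with IL-4 (adjusted p = 0.0467) and -1.54 without it (adjusted p = 0.114). LGI2 had one of -0.88 with IL-4 (adjusted p = 0.0467) and -0.69 without it (adjusted p = 0.0675), and RCOR1, a co-repressor, one of -0.29 with IL-4 (adjusted p = 0.0253) and -0.15 without it (adjusted p = 0.332). IL13RA1, a subunit of the receptor for IL-4 and IL-13, averaged 281.8 ± 77.3 CPM in DNMAML cells and 219.4 ± 60.5 CPM in IRES cells with IL-4 (SD, n = 3 libraries each; log2 change 0.36, adjusted p = 0.0253, edgeR), and had a log2 change of 0.29 without IL-4 (adjusted p = 0.0698). GABARAPL1, an autophagy gene, and MAPK13, a stress kinase, had log2 changes of 0.34 and 0.30 with IL-4 (adjusted p = 0.0345 and 0.0108). None of the 7 was called for the difference between conditions.

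Among genes not called without IL-4, HLA-DRA, an MHC class II chain, averaged 1.12 CPM in DNMAML cells and 2.87 CPM in IRES cells (log2 change -1.27, adjusted p = 0.158), and HLA-DRB1 averaged 0.60 CPM in DNMAML cells and 1.43 CPM in IRES cells (log2 change -1.22, adjusted p = 0.209). CD74, the invariant chain, averaged 373.7 CPM in DNMAML cells and 363.4 CPM in IRES cells (log2 change 0.04, adjusted p = 0.948). The MHC class II list had 10 tested members, 0 called by edgeR and a median of -0.0091. Among the 10, 3 had an unadjusted p under 0.05, against 8.19% of all tested genes. SDC2, a syndecan, averaged 78.6 CPM in DNMAML cells and 102.7 CPM in IRES cells (log2 change -0.39, adjusted p = 0.0523). The proteoglycan gene SDC4 averaged 62.1 CPM in DNMAML cells and 49.8 CPM in IRES cells (log2 change 0.31, adjusted p = 0.192). These genes were chosen after their values were seen.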
